A study of Mus musculus with 72 samples.

Results

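The genes described here are the nuclear genes for subunits of the oxidative phosphorylation system, in pancreatic islets of 3 inbred mouse strains on 2 diets. They were chosen by a rule on symbols that uses no measured value, though with earlier results of these data known. The rule took Nduf genes of the a, b, c, s and v series without the Ndufaf assembly factors, Sdha to Sdhd, Uqcr genes, Cyc1, Cox4 to Cox8 genes and Atp5 genes, and left out 2 symbols that end in -ps. It found 81 of the 14604 genes measured. By symbol, 38 belong to complex I, 4 to complex II, 9 to complex III, 13 to complex IV and 17 to complex V.

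Islets came from male C57BL/6J, DBA/2J and BALB/cJ mice, 8 weeks old per the labels. The animals ate either regular chow (RC) or a high-fat diet (HFD), and were taken after 5, 13 or 33 days, so that strain, diet and day make 18 groups. No allele or drug other than strain and diet is named for any group. Islets were hand-picked after enzymatic digestion and kept in culture overnight before RNA extraction. Each of the 69 libraries held RNA from 120 to 150 islets of 1 mouse. Groups held 4 libraries, except for chow-fed C57BL/6J and chow-fed DBA/2J mice at day 33 and DBA/2J mice on the high-fat diet at day 13, with 3 each. The islet label fits the markers: Ins2 ranged from 16.2 to 17.4 and Gcg from 14.1 to 15.9 log2 CPM over the 69 libraries.

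Oxidative phosphorylation is the last stage of nutrient breakdown in mitochondria. Complexes I to IV pass electrons from NADH and succinate to oxygen and, apart from complex II, pump protons across the inner membrane, and complex V, the ATP synthase, uses the returning protons to make ATP. In beta cells, ATP made from glucose closes the ATP-sensitive potassium channels and so triggers insulin release. Most subunits are encoded in the nucleus and a small core in mitochondrial DNA, so both genomes have to supply parts of complexes I, III, IV and V. Many nuclear subunit genes share promoter motifs for NRF1, for ETS factors such as NRF2/GABP, and for YY1. A few subunits of complex IV have a second gene used in muscle, lung or low oxygen, such as Cox6a2 beside Cox6a1 and Cox4i2 beside Cox4i1.

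Promoters were available in RefSeq (GRCm38.p6) for 64 of the 81 genes, as 300 bases from 250 before to 50 after the start site. On either strand, the NRF1 motif GCGCANGCGC occurred in 26.6% of the genes with a promoter, against 5.2% of all 26742 genes with one (17 of 64 and 1397). The ETS motif CCGGAAG occurred in 17 of 64 against 2674 of 26742, the YY1 motif AAGATGGC in 14.1% against 3.2%, and the TATA motif TATAAA in 9.4% against 15.6%. An ETS match can run into a YY1 match, since the last 3 letters of the one are the first 3 of the other, and an NRF1 match read on both strands was counted once. The 3 promoters below show the 250 bases before the start site of Cox6a1, which was higher in DBA/2J and BALB/cJ than in C57BL/6J, of Sdha, which was lower in BALB/cJ, and of Cox7a2l, which was lower in DBA/2J. They run 5′ to 3′ on the gene's strand, with NRF1 and ETS matches on either strand in capitals.
Cox6a1, chr5:115348959-115349208, minus strand: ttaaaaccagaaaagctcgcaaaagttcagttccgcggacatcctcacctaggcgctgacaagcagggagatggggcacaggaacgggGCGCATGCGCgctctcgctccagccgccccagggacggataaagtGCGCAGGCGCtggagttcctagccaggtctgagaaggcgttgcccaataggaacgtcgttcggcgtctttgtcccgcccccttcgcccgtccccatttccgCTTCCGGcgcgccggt
Sdha, chr13:74350241-74350490, minus strand: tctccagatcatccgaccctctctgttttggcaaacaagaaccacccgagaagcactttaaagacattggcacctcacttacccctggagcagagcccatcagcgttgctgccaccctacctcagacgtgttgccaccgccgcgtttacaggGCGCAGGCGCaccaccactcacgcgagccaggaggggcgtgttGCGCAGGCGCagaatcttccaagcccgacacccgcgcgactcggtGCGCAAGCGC
Cox7a2l, chr17:83514334-83514583, minus strand: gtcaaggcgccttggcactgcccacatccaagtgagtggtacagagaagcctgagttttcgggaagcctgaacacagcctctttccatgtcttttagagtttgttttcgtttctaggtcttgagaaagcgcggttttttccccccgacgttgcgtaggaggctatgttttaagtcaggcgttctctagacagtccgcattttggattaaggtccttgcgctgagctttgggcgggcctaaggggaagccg
The Cox6a1 stretch holds 2 NRF1 matches, which begin 162 and 117 bases before the start site, and 1 ETS match 16 bases before it. The Sdha stretch holds 3 NRF1 matches, at 98, 55 and 10 bases before the start site. The Cox7a2l stretch holds none of the 4 motifs, which says only that these letters are not in this window, and it lies inside the gene span that GENCODE release M21 gives for Cox7a2l.

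Levels are log2 CPM, the base 2 logarithm of read counts scaled to one library size, as the authors deposited them. All values are per gene and, unless a length is named, compare the same gene between groups. Reads in the table numbered 12292621 to 34591079 per library (median 22756199), and the 81 genes took 0.50% to 0.66% of them by group mean. The fewest reads of any of the genes in a library were 11, for Cox4i2, and the most were 19619, for Atp5b, so counting error limits mainly Cox4i2 and Ndufa4l2. Per kilobase of exon, the complex medians were 4.454 log2 CPM for complex I, 5.211 for II, 5.702 for III, 5.893 for IV and 5.112 for V. On this per-length scale Atp5a1, the catalytic-core alpha subunit of the ATP synthase, stood highest at 7.49 and Atp5l lowest at -0.06. Atp5l has 6443 annotated exon bases and 2 named pseudogenes, so its level per length is less certain. Cox7a1, Cox8b, Cox6b2, Cox7b2, Cox8c and Atp5s were not analysed here.

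Strain took a larger share of the variance of these genes than day or diet did. The shares were taken in order, as strain, day within strain, diet within strain and day, and spread within groups. Their medians over the 81 genes were 40.1% for strain, 12.8% for diet, 4.81% for day and 41.5% for the spread within groups. Over all genes measured the same shares were 27.3%, 12.2%, 7.94% and 47.0%. The shares are not adjusted for the number of group means compared at each step, which is highest for diet. Chance alone gives each step a share, so the diet and day shares do not by themselves show an effect. The strain share was highest for Cox7a2l (92.9%) and Sdha (80.8%), and lowest for Ndufa12 (3.03%).

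The first comparison asked how the strains differ on regular chow. DBA/2J islets had higher levels of most of these genes than C57BL/6J islets. Of the 81 genes, 49 were higher and 4 lower (limma, adjusted p under 0.05), which is 60.5% higher against 26.9% of all genes and 4.94% lower against 27.6%. The median difference was 0.20 on the log2 scale, against 0.00 over all genes, and 74 of 81 values were positive. BALB/cJ islets had an intermediate median: against C57BL/6J, 36 genes were higher (44.4%, background 27.7%) and 2 lower (2.47%, background 28.6%), with a median of 0.10. Between BALB/cJ and DBA/2J, 3 were higher in BALB/cJ (3.70%, background 17.4%) and 23 lower (28.4%, background 17.7%), with a median of -0.09. Each pair of these comparisons shares the libraries of 1 strain, so the counts are not independent of each other.

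**Figure D1:**
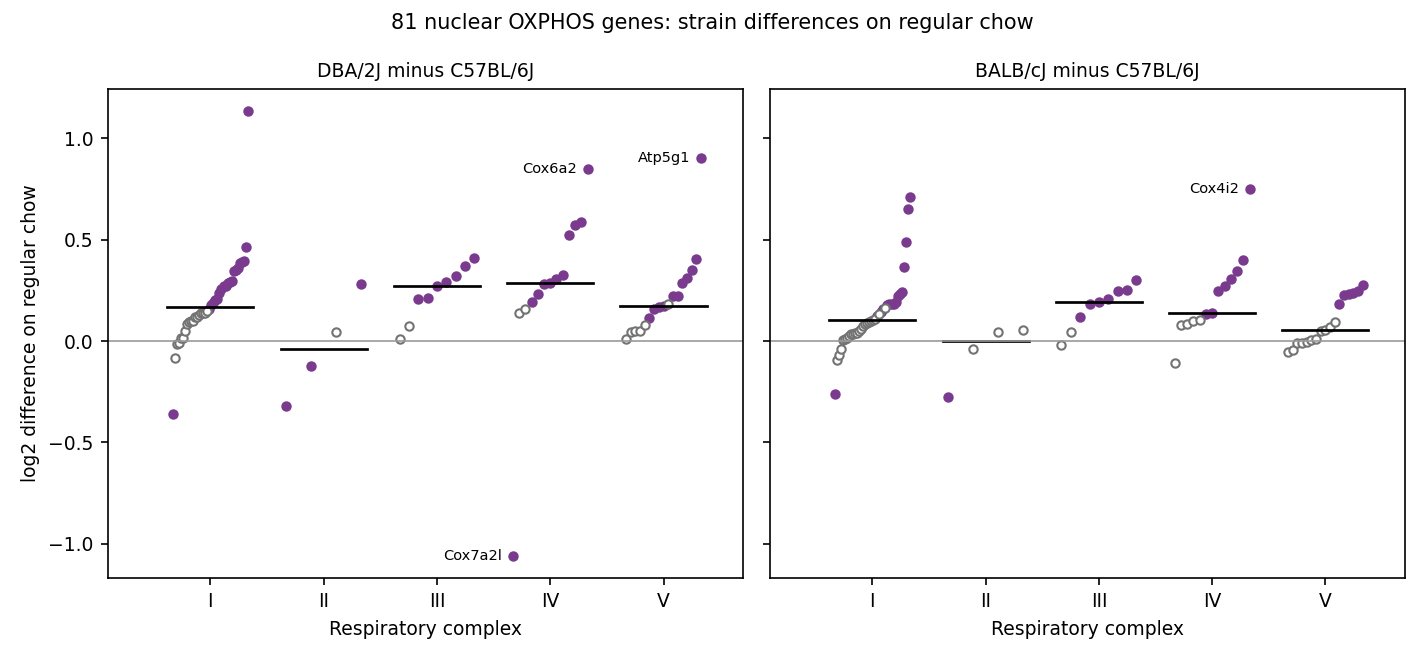
Strain differences on regular chow (y axis, log2 difference) for the 81 genes, grouped by respiratory complex (x axis), with DBA/2J minus C57BL/6J on the left and BALB/cJ minus C57BL/6J on the right. Each point is 1 gene, filled where the adjusted p was under 0.05, and black lines are medians; most filled points lie above 0, and Cox7a2l is the lowest point on the left, at -1.06.

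By complex, the counts are to be read against the 26.9% higher and 27.6% lower of all genes in DBA/2J, and 27.7% and 28.6% in BALB/cJ. In DBA/2J against C57BL/6J, 20 of 38 complex I genes were higher and 1 lower, with a median of 0.17. Of 9 complex III genes 7 were higher, and the 9 values were positive (median 0.27). For complex IV, 10 of 13 genes were higher and 1 lower (median 0.29), and for complex V, 11 of 17 were higher and none lower (median 0.17). Of the 4 subunits of succinate dehydrogenase, complex II, Sdhb was higher (0.28), Sdhc (-0.32) and Sdhd (-0.12) were lower, and Sdha did not pass. In BALB/cJ against C57BL/6J the higher genes were 15 of 38, 7 of 9, 8 of 13 and 6 of 17 for complexes I, III, IV and V, and 0 of 4 for complex II, of which those of complexes I and V are nearest to the share over all genes.

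Sdhc, a membrane anchor of complex II at chr1:171127165-171150603 (GRCm38), was lower in DBA/2J. On chow it ranged from 5.96 to 6.24 log2 CPM in 11 C57BL/6J libraries, from 5.69 to 5.88 in 11 DBA/2J libraries and from 5.97 to 6.31 in 12 BALB/cJ libraries. DBA/2J was below both other strains without overlap, by 0.32 ± 0.05 from C57BL/6J (adjusted p 7.50e-08). Sdha, the flavoprotein that oxidises succinate, was instead low in BALB/cJ, at 7.61 to 7.88 against 7.94 to 8.12 in C57BL/6J and 8.02 to 8.14 in DBA/2J. Its difference from C57BL/6J was -0.28 ± 0.03 (adjusted p 1.14e-11).

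Cox7a2l was the gene most set apart by strain. Its product, also called SCAFI, binds complex III to complex IV in respiratory supercomplexes, and C57BL/6 mice are known to carry a shortened protein form. On chow it ranged from 6.95 to 7.29 log2 CPM in C57BL/6J (median 7.07), from 5.77 to 6.38 in DBA/2J (median 6.05) and from 6.82 to 7.17 in BALB/cJ (median 6.97). DBA/2J was lower in each of its 11 libraries than any library of the other strains on chow. Reads of all strains were aligned to the same genome build, GRCm38. The part of sequence differences between strains in the counts of this or any other gene was not tested. The difference was -1.06 ± 0.06 against C57BL/6J (adjusted p 3.08e-24), a fold of 0.480, and BALB/cJ was 0.95 ± 0.05 above DBA/2J (adjusted p 2.47e-22). BALB/cJ and C57BL/6J differed by -0.11 ± 0.05, which did not pass (adjusted p 0.0842). It was the only one of the 13 complex IV genes called lower in DBA/2J.

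**Figure D2:**
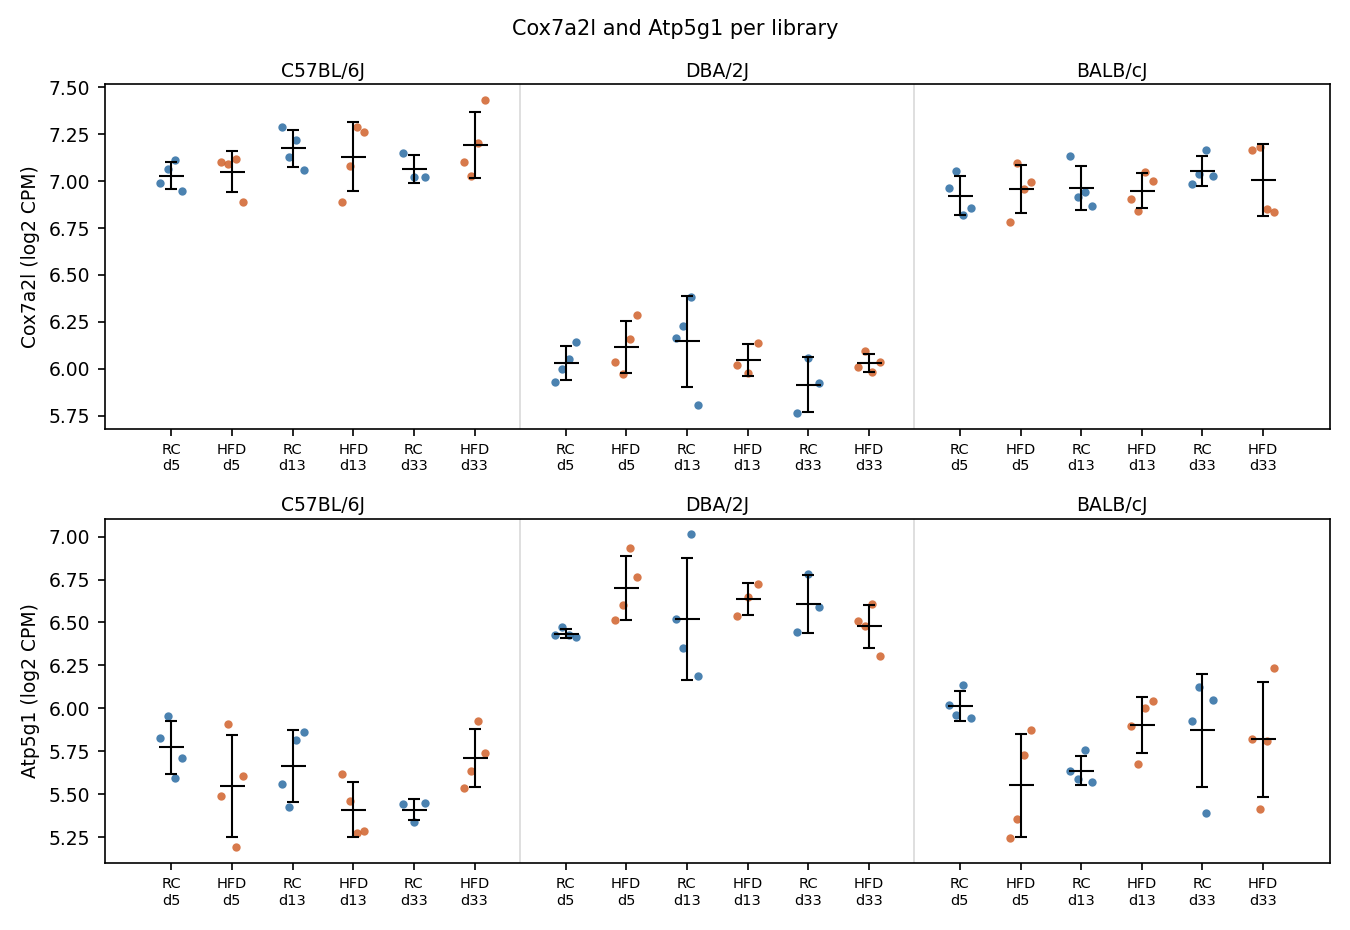
Levels of Cox7a2l (top) and Atp5g1 (bottom) in log2 CPM (y axes) for the 18 groups (x axis: diet and day, by strain). Points are libraries, blue for RC and orange for HFD, with black mean and SD; DBA/2J is low for Cox7a2l (5.77 to 6.38 on chow) and high for Atp5g1 (6.19 to 7.01).

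Among genes of the ATP synthase, Atp5g1 led. The genes Atp5g1, Atp5g2 and Atp5g3 encode the same mature c subunit of the membrane rotor. On chow Atp5g1 ranged from 5.34 to 5.96 log2 CPM in C57BL/6J, from 6.19 to 7.01 in DBA/2J and from 5.39 to 6.13 in BALB/cJ. DBA/2J lay above both other strains without overlap, by 0.91 ± 0.09 from C57BL/6J (adjusted p 3.21e-13). BALB/cJ was 0.23 ± 0.09 above C57BL/6J (adjusted p 0.0222), which missed the threshold without BALB/cJ RC day 33 replicate 2 (adjusted p 0.0509) and turned to -0.046 with the cell type lists described below as covariates. Atp5g2 and Atp5g3 were also higher in DBA/2J than in C57BL/6J, by 0.29 and 0.22, and did not pass in BALB/cJ (0.07 and 0.05). Atp5o, the stalk subunit also called OSCP, was higher in DBA/2J (0.41 ± 0.05) and BALB/cJ (0.28 ± 0.05), and its C57BL/6J range of 5.34 to 5.61 overlapped neither DBA/2J (5.70 to 6.36) nor BALB/cJ (5.64 to 5.96). A second gene model named Atp5o shares 12.3% of its exon bases, so its counts are less certain.

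Complex IV genes with paired isoforms moved unequally. Cox6a1, the form found in most tissues, was higher in DBA/2J (0.52 ± 0.08) and BALB/cJ (0.40 ± 0.08) than in C57BL/6J. Cox6a2, the form known from heart and skeletal muscle, was higher in DBA/2J by 0.85 ± 0.23 (adjusted p 0.00136) and differed by 0.08 ± 0.22 in BALB/cJ (adjusted p 0.784). Per kilobase of exon the 2 genes had similar means in these islets, 6.71 for Cox6a1 and 6.27 for Cox6a2. Cox4i1, the common regulatory subunit, was 0.29 higher in DBA/2J, and Cox4i2, known from lung and hypoxic cells, was 0.58 ± 0.15 higher in DBA/2J and 0.75 ± 0.15 in BALB/cJ. Cox5a, which pairs with Cox4 in the complex, was higher by 0.57 ± 0.06 and 0.35 ± 0.06. Cox7a2, Cox8a and Cox6b1 were higher by 0.23, 0.33 and 0.28 in DBA/2J and by 0.13, 0.25 and 0.30 in BALB/cJ. The Cox7a2 call in BALB/cJ (adjusted p 0.0444) was kept in 10 of 23 fits that each left out 1 library, with adjusted p up to 0.138. Ndufa4, named after complex I but now placed in complex IV, was higher by 0.34 and 0.22, and its paralogue Ndufa4l2 by 0.47 and 0.65.

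The other genes called higher in DBA/2J than in C57BL/6J had differences from 0.12 (Atp5h, the d subunit of the ATP synthase stalk) to 0.41 (Uqcrq, a small subunit of complex III). Of the complex III core, Uqcrc1, the cytochrome c1 gene Cyc1 and the iron-sulfur subunit Uqcrfs1 were higher by 0.27, 0.32 and 0.21. Ndufc2, a small membrane subunit of complex I, was lower in both DBA/2J (-0.36) and BALB/cJ (-0.26). On chow 9 genes had no overlap between the libraries of DBA/2J and C57BL/6J. Among them Atp5g1, Atp5o, Cox5a, Ndufa10, Ndufa3 and Ndufa4 were higher and Cox7a2l and Sdhc lower. Between BALB/cJ and C57BL/6J the count was 2 (Atp5o higher, Sdha lower), and between BALB/cJ and DBA/2J it was 4 (Atp5g1 and Sdha lower, Cox7a2l and Sdhc higher). These counts without overlap were not made over all genes, so whether they are high or low for the whole table is not known.

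Markers of other cell types were compared between the strains in the same way. Their counts are to be read against 26.9% of all genes higher and 27.6% lower in DBA/2J, and 27.7% and 28.6% in BALB/cJ. The 6 endothelial markers Pecam1, Cdh5, Emcn, Kdr, Esam and Plvap were all higher in DBA/2J than in C57BL/6J (median 0.34), and 5 of 6 were higher in BALB/cJ (median 0.52). Their summed level on chow was 384 to 479 CPM in C57BL/6J, 473 to 616 in DBA/2J and 525 to 674 in BALB/cJ. Of 10 acinar markers, 9 were higher in DBA/2J (median 1.46) and 6 in BALB/cJ (median 1.29), with sums of 389 to 8342, 859 to 8947 and 360 to 10643 CPM. Of 8 stellate and fibroblast markers, 2 and 7 were higher (sums 236 to 387, 297 to 429 and 314 to 719 CPM). Of 7 macrophage markers 4 and 2 were lower (sums 98.1 to 243, 71.0 to 117 and 88.3 to 288.7 CPM). The 2 of 8 in DBA/2J and the 2 of 7 in BALB/cJ are near the share over all genes. Of the markers of these 4 lists only Amy2a5 reached the floor of the table in any library.

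With the mean levels of these 4 lists as covariates, the calls fell from 53 to 9 in DBA/2J against C57BL/6J and from 38 to 4 in BALB/cJ against C57BL/6J, while the calls over all genes fell from 7954 to 3205 and from 8225 to 3522. The medians of the 81 genes became 0.09 and 0.01. The endothelial list alone left 24 and 8 calls. Its mean level does not overlap between C57BL/6J (5.67 to 5.94 log2 CPM on chow) and DBA/2J (6.01 to 6.38) or BALB/cJ (6.03 to 6.43), so strain and this list cannot be fully told apart. Cox7a2l (-1.18), Sdhc (-0.43), Atp5g1 (0.62) and Cox5a (0.56) were still called in DBA/2J with all 4 lists, and Sdha (-0.29) and Cox5a (0.36) in BALB/cJ. Cox6a2 in DBA/2J went to -0.020, and Cox4i2 went to -0.18 in DBA/2J and -0.063 in BALB/cJ. Between BALB/cJ and DBA/2J the number of calls went from 26 to 19. Other lists, not used as covariates, are to be read against the shares of all genes given above for the markers. The 3 delta cell markers had mean levels of 5.82 to 6.42 log2 CPM in C57BL/6J, 6.196 to 6.69 in DBA/2J and 6.49 to 6.999 in BALB/cJ on chow, with 2 and 3 of them higher, and C57BL/6J and BALB/cJ did not overlap. Of 4 ductal markers 2 were higher and 1 lower in DBA/2J and 3 higher in BALB/cJ, with median levels of 1.98, 2.76 and 3.44. Fabp4, the only 1 of 5 adipocyte markers in the table and also known from endothelium, was at 1.60 to 2.501, 3.03 to 4.20 and 3.61 to 5.31, so that C57BL/6J lay below both other strains. The part of these cells in the results was not tested. Of 7 beta cell markers, 1 was higher and 1 lower in DBA/2J, and 2 were higher and 1 lower in BALB/cJ. In whole islets, a change in the share of a cell type and a change in RNA per cell cannot be told apart. Cox6a2 is a muscle gene, and of 6 striated muscle markers only Acta1 was in the table. On chow it was at -0.52 to 0.57 log2 CPM in C57BL/6J, 0.27 to 1.48 in DBA/2J and 1.32 to 2.38 in BALB/cJ, higher by 0.77 in DBA/2J and 1.86 in BALB/cJ, and its part in the Cox6a2 difference was not tested.

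The subunits encoded in mitochondrial DNA had negative medians in both comparisons with C57BL/6J, where the nuclear ones had positive medians. Of the 13 genes of mitochondrial DNA, 7 were measured. Of these, 6 were lower in DBA/2J (median -0.34, background 27.6%) and 6 lower in BALB/cJ (median -0.37, background 28.6%) than in C57BL/6J, with none higher. Among them mt-Nd5, a proton-pumping subunit of complex I, was at -0.53 ± 0.08 and -0.51 ± 0.07. Between BALB/cJ and DBA/2J 1 of the 7 was called, mt-Nd1, which was 0.22 higher in BALB/cJ (adjusted p 0.0333, background 17.4%).

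The other mitochondrial lists had these counts, against 26.9% higher and 27.6% lower of all genes in DBA/2J and 27.7% and 28.6% in BALB/cJ. Of 77 mitochondrial ribosomal proteins, which translate those transcripts, 39 were higher and 6 lower in DBA/2J (median 0.15) and 37 were higher and 4 lower in BALB/cJ (median 0.14). Mrpl35 stood out with -1.05 ± 0.06 in DBA/2J. Of 46 assembly factors measured, 12 were higher and 9 lower in DBA/2J and 11 and 9 in BALB/cJ, near or under the share over all genes. Cox18, which inserts a mitochondrially made complex IV subunit into the membrane, was higher by 0.87 ± 0.07 and 0.75 ± 0.07, and Lyrm7, which loads the iron-sulfur subunit of complex III, was 0.95 ± 0.11 higher in DBA/2J. For 17 genes of the citrate cycle and pyruvate dehydrogenase the counts were 7 higher and 1 lower in DBA/2J and 4 higher and 6 lower in BALB/cJ, with Pdha1, the pyruvate dehydrogenase subunit, at -0.47 ± 0.04 in BALB/cJ. Of 12 regulators of mitochondrial biogenesis, 2 were higher and 5 lower in DBA/2J and 3 higher and 6 lower in BALB/cJ. Nrf1, the factor of the NRF1 motif, was lower in both (-0.28 ± 0.05 and -0.41 ± 0.05), and Ppargc1a, a coactivator of mitochondrial genes, was at -2.06 ± 0.14 in BALB/cJ (adjusted p 6.32e-20). Of 13 cytochrome c and carrier genes, 5 were higher and 1 lower in DBA/2J and 5 higher and 2 lower in BALB/cJ, with the ADP/ATP carrier Slc25a5 higher by 0.33 and 0.18.

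The second comparison asked what the high-fat diet did. Averaged over strains and days, 2 of the 81 genes were lower on the diet and none higher, 2.47% against a background of 3.06% of all genes lower. Cox6a2 was one of them (-0.58 ± 0.13, adjusted p 0.00334). The median difference of the 81 genes was 0.00.

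In C57BL/6J 12 of the 81 genes were lower on the diet over the 3 days and none higher, which is 14.8% against 8.05% of all genes lower. The median was -0.08, against -0.01 over all genes, and 68 of 81 values were negative, against 53.8% of all genes. The lower genes were spread over the complexes, and included Ndufs5 and Ndufb3 of complex I, Sdhc of complex II, Uqcrc2 of complex III, Cox6a2, Cox6c and Cox7b of complex IV, and Atp5md, Atp5mpl, Atp5f1 and Atp5b of the ATP synthase. Of 23 fits that each left out 1 library, Cox6c was called in 11, Atp5f1 in 18, Cox7b in 19, and Ndufs5 and Atp5mpl in 21 each, and Cox6c turned to 0.028 with the title number, described below, as a covariate. Atp5b, the catalytic beta subunit, had the value nearest to 0 among them, at -0.12. Atp5md and Atp5mpl, small membrane subunits that help ATP synthase dimers form, were at -0.30 ± 0.08 and -0.23 ± 0.07. For none of the 81 genes did the libraries of the diets separate without overlap in any strain, which was not counted over all genes. Atp5l, another small membrane subunit, had the highest positive value at 0.40 ± 0.15 and did not pass (adjusted p 0.056).

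Cox6a2 had the lowest value of the 81 genes in the C57BL/6J diet comparison. In C57BL/6J on chow its 11 libraries ranged from 5.25 to 6.03 log2 CPM with a median of 5.81, and on the high-fat diet its 12 libraries ranged from 2.46 to 5.81 with a median of 4.80. The difference was -1.07 ± 0.22 (adjusted p 0.000809), a fold of 0.475. At day 13 the 4 high-fat libraries split, with replicates 1 and 2 at 5.81 and 5.45 and replicates 3 and 4 at 3.08 and 2.46, while the 4 chow libraries stood at 5.81, 5.94, 5.98 and 5.71. At day 5 the high-fat libraries stood at 4.48, 4.82, 5.21 and 5.45 and the chow libraries at 5.85, 6.03, 6.03 and 5.63. At day 33 the values were 4.31, 4.71, 5.19 and 4.77 against 5.49, 5.51 and 5.25. The high-fat libraries were thus below all chow libraries at days 5 and 33 and in 3 of 4 at day 13, where replicate 1 lay within the chow range. In DBA/2J the medians were 6.59 on chow and 6.49 on the diet, and in BALB/cJ 5.78 and 5.17, where the difference of -0.52 ± 0.21 did not pass (adjusted p 0.377). Of the exon bases of Cox6a2, 10.3% overlap Itgad on the other strand, which was not analysed here, and whether reads were counted by strand is not given in the sources used here.

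**Figure D3:**
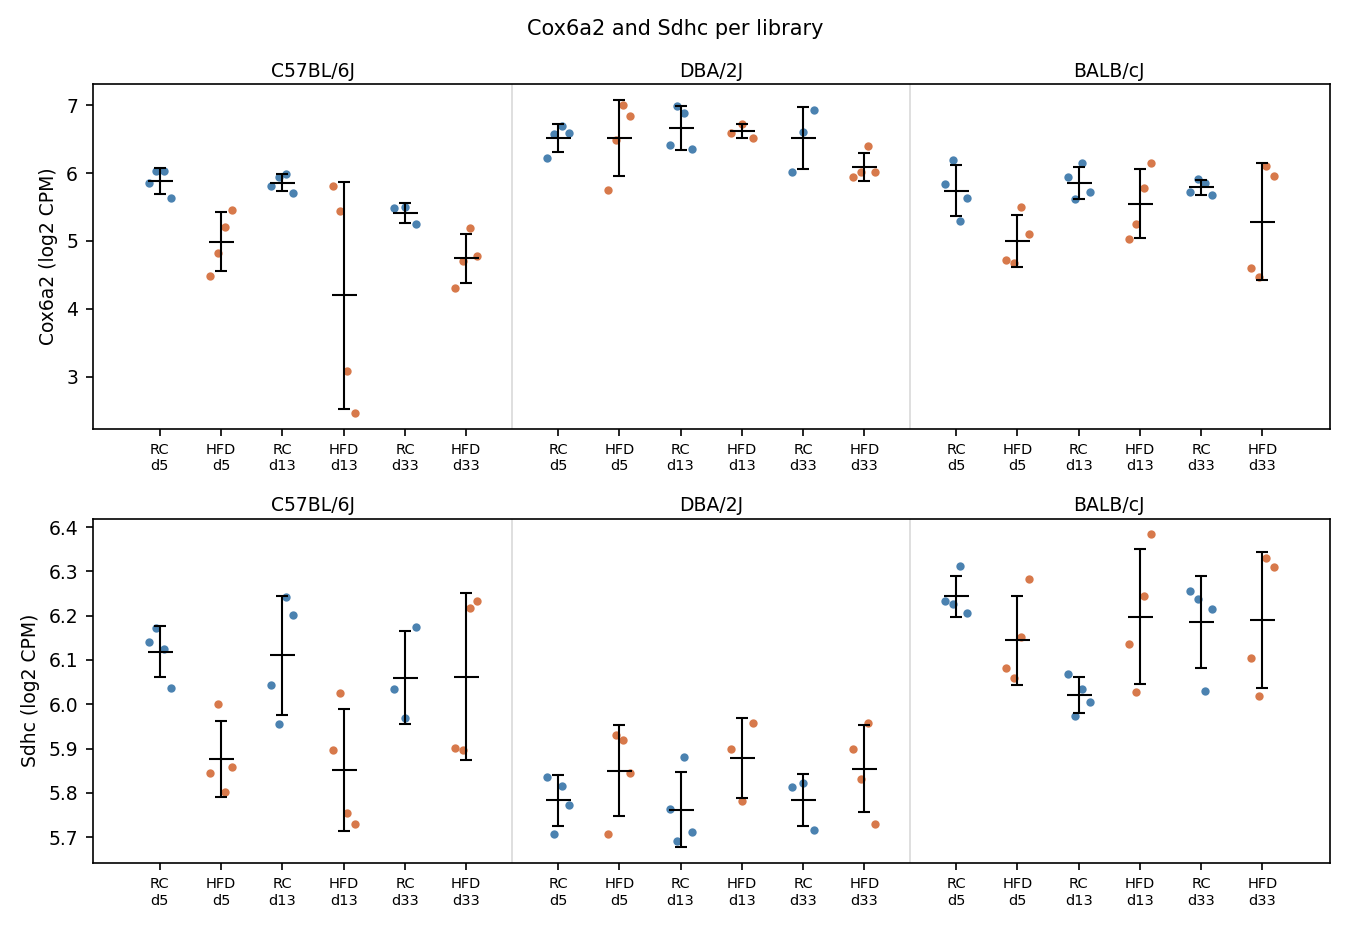
Levels of Cox6a2 (top) and Sdhc (bottom) in log2 CPM (y axes) for the 18 groups (x axis: diet and day, by strain). Points are libraries, blue for RC and orange for HFD, with black mean and SD; the 4 libraries of C57BL/6J HFD day 13 split between 5.81 and 2.46 for Cox6a2, and DBA/2J is low for Sdhc (5.69 to 5.88 on chow).

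In BALB/cJ on the diet at day 33, Cox6a2 also split, with libraries at 4.605, 4.47, 6.11 and 5.95. Cox6a2 had the highest spread within groups of the 81 genes, an SD of 0.55, against a median of 0.15 for the 81 genes and 0.18 for all genes. Sdhc was lower on the diet in C57BL/6J, from a median of 6.12 to 5.90 log2 CPM (-0.17 ± 0.05, adjusted p 0.0112), with ranges of 5.96 to 6.24 on chow and 5.73 to 6.23 on the diet. The ranges overlapped because 2 high-fat libraries of day 33 stood at 6.22 and 6.23 and 2 others, of days 5 and 13, at 6.00 and 6.03.

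The 81 genes varied together within groups, so counts of their signs in a comparison are not counts of independent results. Over all 3240 pairs the median correlation of deviations was 0.48, and 91.1% of pairs were positive, over 69 libraries, with both genes of a pair read from the same libraries, depth and scaling. Over all pairs of the 14604 genes the median was -0.004 and 49.3% were positive. The median was 0.48 within complex I, 0.33 within II, 0.57 within III, 0.41 within IV and 0.51 within V. Uqcr11 with Ndufa11 was highest at 0.92, and Ndufs1 with Ndufs7 lowest at -0.61. Ndufs1 and Ndufs7 are core iron-sulfur subunits of the same complex. Sdha had the lowest spread within groups, an SD of 0.06.

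The C57BL/6J diet difference was also taken at each day, and the days were not tested against each other. The median of the 81 genes was -0.12 at day 5 with 76 negative values, -0.14 at day 13 with 79 negative values, and 0.03 at day 33 with 31 negative values. Of all genes, 51.8%, 51.3% and 52.6% had negative values at these days. Sample titles carry a number whose meaning the labels do not give, and at day 5 the numbers of the high-fat and chow groups do not overlap. With this number as a covariate the day 5 median turned to 0.09 and the others were -0.14 and 0.03, so at day 5 the diet and what the number stands for cannot be told apart. None of the 81 passed at day 5, against a background of 1.87% of all genes, and 12 had an unadjusted p under 0.05 (voom also called 0). At day 13, 2 passed, both lower (2.47%, background 0.863%): Cox6a2 at -1.66 ± 0.37 (adjusted p 0.0195) and Ndufs5 at -0.49 ± 0.13 (adjusted p 0.0425). None passed at day 33, where no gene in the table did (background 0.0%) and 2 had an unadjusted p under 0.05. Ndufs5, a small accessory subunit of complex I, stood at 3.25, 3.62, 3.02 and 3.12 log2 CPM on the diet and 3.66, 3.72, 3.82 and 3.76 on chow at day 13. The 4 diet libraries were below the 4 chow libraries. Leaving out high-fat replicate 3 or 4, or chow replicate 2 or 3, of day 13 left no call, and leaving out high-fat replicate 2 gave 13, with calls over all genes not given here. The call of Cox6a2 was kept in 4 of 8 such fits, with values up to -1.08, and that of Ndufs5 in 2 of 8.

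**Figure D4:**
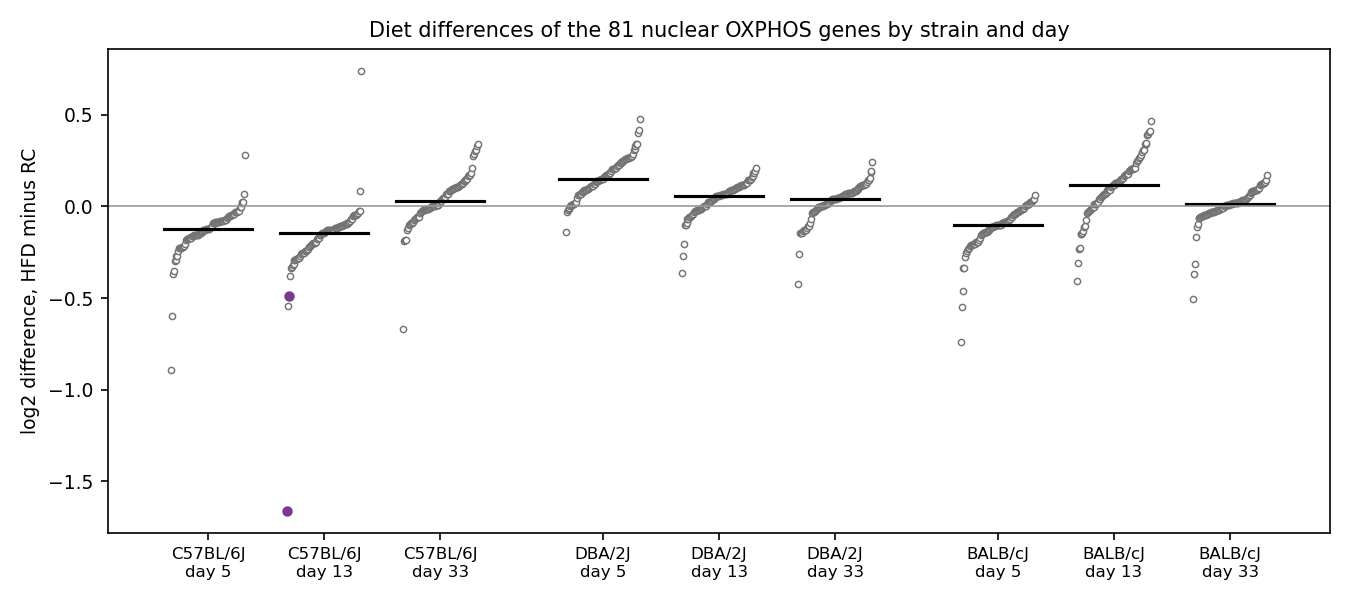
Diet differences (y axis, log2 HFD minus RC) of the 81 genes at each day in each strain (x axis). Each open point is 1 gene, filled points had an adjusted p under 0.05, and black lines are medians: -0.12, -0.14 and 0.03 for C57BL/6J at days 5, 13 and 33, and 0.15 for DBA/2J at day 5.

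In DBA/2J the values pointed the other way without passing. Over the 3 days none of the 81 genes passed and no gene in the table did (background 0.0%). The median was 0.08, and 11 genes had an unadjusted p under 0.05. Of the 81 values 77 were positive, where 46.1% of all genes had negative values. At day 5 the median was 0.15 with 76 positive values, and none passed after adjustment (background 0.548% of all genes). An unadjusted p under 0.05 was found for 29 of the 81 genes, a count not made over all genes. The lowest adjusted p was that of Cox8a, a small complex IV subunit, at 0.42 ± 0.12 (adjusted p 0.0569), followed by Ndufs7 at 0.48 ± 0.15 (adjusted p 0.0639). Without replicate 1 of the high-fat libraries at day 5, 16 genes passed, and without replicate 2, 10 did. Calls over all genes in these fits are not given here, so the rise can be shared by the whole table. The medians at days 13 and 33 were 0.06 and 0.04 with no call, against backgrounds of 0.0% and 0.0205%, and 0 and 1 genes had an unadjusted p under 0.05.

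In BALB/cJ none of the 81 genes passed over the 3 days (background 0.151%), with a median of 0.01 and 4 unadjusted p under 0.05. The values changed sign between days without calls: the median was -0.10 at day 5 (69 negative values, background 0.315%), 0.12 at day 13 (62 positive values, background 0.00685%) and 0.01 at day 33 (background 0.0%). Of the 81 genes, 5, 26 and 0 had an unadjusted p under 0.05, counts not made over all genes. Atp5g1 at day 5 (-0.46 ± 0.15, adjusted p 0.145) and Ndufv1, the NADH-binding subunit of complex I, at day 13 (0.41 ± 0.11, adjusted p 0.185) had the lowest adjusted p of these days.

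The diet effects of strains were compared directly. Between DBA/2J and C57BL/6J, 78 of 81 differences of the diet effect were positive, with a median of 0.16. An unadjusted p under 0.05 was found for 38 of them, a count not made over all genes. The 1 gene that passed was Sdhc, with a difference of 0.25 ± 0.07 (adjusted p 0.0431), which is 1.23% against 0.651% of all genes higher. Sdhc was at -0.17 on the diet in C57BL/6J and at 0.09 in DBA/2J. The call held in 18 of 45 fits that each left out 1 library, and Uqcrc2, Atp5b and Ndufb3 lay just past the threshold (adjusted p 0.0528, 0.0531 and 0.0531). Between BALB/cJ and C57BL/6J none passed (background 1.27%; median 0.09; 13 unadjusted p under 0.05), and between BALB/cJ and DBA/2J none did (background 0.0%; median -0.07; 0 unadjusted). These 3 contrasts share libraries of each strain.

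**Figure D5:**
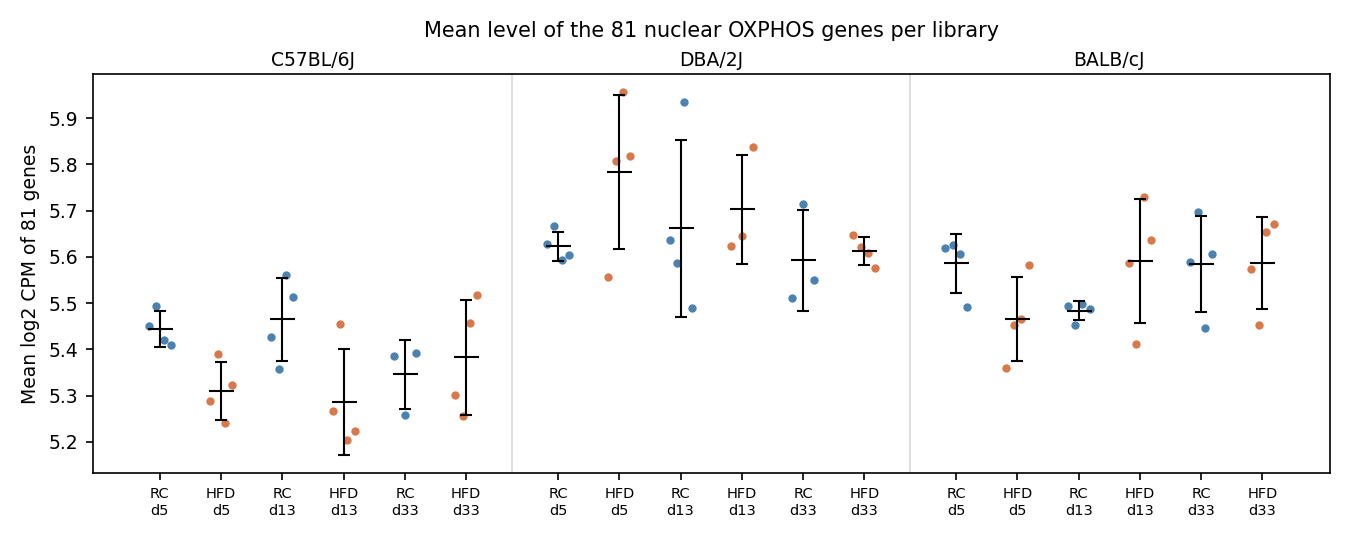
Mean log2 CPM of the 81 genes in each library (y axis) for the 18 groups (x axis: diet and day, by strain). Points are libraries, blue for RC and orange for HFD, with black mean and SD; group means run from 5.29 in C57BL/6J HFD day 13 to 5.78 in DBA/2J HFD day 5.

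The mean of the 81 genes per library summarises these contrasts. In C57BL/6J it was 5.44 ± 0.04 (SD, n = 4) on chow and 5.31 ± 0.06 on the diet at day 5, and 5.47 ± 0.09 and 5.29 ± 0.11 at day 13. At day 5 the 4 diet libraries (5.24 to 5.39) lay below the 4 chow libraries (5.41 to 5.49). In DBA/2J at day 5 it was 5.62 ± 0.03 on chow and 5.78 ± 0.17 on the diet, and these groups overlapped. The lowest DBA/2J chow library stood at 5.49 and the highest C57BL/6J chow library at 5.56, so the strains overlapped in this mean.

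Markers of other cells were also compared by diet in C57BL/6J, where 8.05% of all genes were lower. Of 8 stellate and fibroblast markers 6 were lower on the diet (median -0.80), with sums of 151 to 274.97 CPM against 236 to 387 on chow. Of 6 endothelial markers 2 were lower (median -0.13; 350 to 479 against 384 to 479 CPM), and of 7 macrophage markers 2 (median -0.27; 76.5 to 115 against 98.1 to 243 CPM). The 10 acinar markers had a median of 0.71 with none called (268.27 to 4900 against 389 to 8342 CPM). With the 4 lists as covariates 6 of the 81 genes were called in place of 12, and Cox6a2 was at -0.84 (adjusted p 0.0157). With the title number as a covariate none of the 81 genes was called over the 3 days, their median was -0.0013, and Cox6a2 was at -1.88 (adjusted p 0.149). Without day 5 or without day 13, 1 gene was called. Leaving out C57BL/6J HFD day 33 replicate 2 or RC day 33 replicate 1 left 6. The calls over all genes under these alternatives are not given here, so the changes can be shared by the whole table. Of 7 mitochondrially encoded subunits none was called by diet in C57BL/6J (median -0.06), and of 77 mitochondrial ribosomal proteins 2 were higher and 3 lower. The 3 of 77 lie under the 8.05% of all genes lower, and the share of all genes higher is not given here.

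The third comparison was time, day 33 against day 5 over both diets. In DBA/2J 2 of the 81 genes were lower at day 33 (2.47%, background 4.03%), with a median of -0.10 and 75 negative values. The title numbers of days 5 and 33 do not overlap in DBA/2J, and with the number as a covariate the median turned to 0.02 and no gene was called, so day and number cannot be told apart. The 2 genes called without this covariate were Ndufv3, a small accessory subunit of complex I (-0.27 ± 0.07, adjusted p 0.0122), and Sdhb, the iron-sulfur subunit of complex II (-0.20 ± 0.06, adjusted p 0.0263). Without DBA/2J HFD day 5 replicate 1 there were 12 and without RC day 33 replicate 1 there were none, with calls over all genes not given here. None passed in C57BL/6J (background 0.623%; 2 unadjusted p under 0.05) or in BALB/cJ (background 1.13%; 5 unadjusted), with medians of -0.01 and 0.06. In BALB/cJ, too, the title numbers of days 5 and 33 do not overlap, so day and number cannot be told apart. In C57BL/6J the numbers of day 33 lie between those of the high-fat and chow libraries of day 5. Sdha in C57BL/6J (0.11 ± 0.04, adjusted p 0.166) and Ndufa3 in BALB/cJ (0.27 ± 0.09, adjusted p 0.111) had the lowest adjusted p.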

How the data were processed

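Poly(A) RNA was sequenced as stranded libraries with 125 bp single-end reads, per the labels' protocols. The authors deposited 1 table of log2 CPM values for 14604 genes, made with STAR (2.5.3a), counting in HTSeq (0.9.1) and edgeR (no version given) on GRCm38, per the submitters' processing notes. The table has columns for 69 of the 72 samples, and the others were not analysed here. The table has 1 floor per library, from which whole reads were recovered for 100% of values within 0.05 reads. The last day is 33, as the labels give it; the series text differs. C56BL/6J in the labels was taken to mean C57BL/6J.

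The limma package (3.58.1, R 4.3.3) fitted each gene with 18 group means over the 69 libraries, with eBayes and a trend on the mean level. Each of 22 comparisons was two-sided, with Benjamini-Hochberg adjustment over all 14604 genes and a threshold of 0.05. No low-value filter was used, so all 81 genes were tested. Values after ± are standard errors for differences and SD for group means. "Higher", "lower" and "called" mean past the threshold. Backgrounds are shares of all genes past the same threshold. Counts with an unadjusted p under 0.05 were made for the 81 genes only and have no background. Each library is 1 mouse, and p-values measure the spread between mice. Gene positions, exon lengths and overlaps come from GENCODE release M21, in which all 81 identifiers were found without version, and 31 share exon bases with another gene, 2 of them over 20% (Ndufa13 and Ndufb6). A named pseudogene exists for 5. Named genes are the called genes of each comparison, up to 10 in each direction, the 3 lowest p where none was called, and the isoform genes. Ndufs1, Ndufs7, Uqcr11, Ndufa11, Ndufa12 and Atp5l were named after their values were seen. The 81 genes, lists, tests and alternatives were chosen with earlier results of these data known. The counts cover all 81 genes, and results of 1 gene are not reported here. The procedure was tested on simulated data. The edgeR test planned for counts was not run, because the values are log2 CPM, and voom on the recovered reads took its place after the data were seen.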

Additional observations from a re-analysis of the deposited data

Results flagged for a closer look

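Among 11 of the genes and the mean of the 81, each tested in 15 groups of 4 libraries, 5 of 180 tests had a library that stood apart from the other 3 by Dixon's ratio at the 95% level; chance alone flags about 1 in 20 groups. For Ndufs5, BALB/cJ RC day 33 replicate 3 stood at 3.29 log2 CPM against 3.80 to 3.81, and C57BL/6J RC day 5 replicate 4 at 3.73 against 3.49 to 3.52. For Cox7a2l, C57BL/6J HFD day 5 replicate 4 stood at 6.89 against 7.09 to 7.12. For Sdha, C57BL/6J HFD day 13 replicate 1 stood at 7.85 against 7.98 to 7.99. For the mean of the 81 genes, BALB/cJ RC day 5 replicate 4 stood at 5.49 against 5.61 to 5.63. The splits of 2 against 2 in Cox6a2 do not meet this criterion, since no single library stands apart.

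The effect of the diet on Sdhc differed between DBA/2J and C57BL/6J by 0.25 on the log2 scale, past the threshold in the test of the difference itself.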

How the results depend on the processing

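Numbers of called genes under each alternative follow, with the main number in parentheses. Except for all cell type lists above, the calls over all genes under these alternatives are not given here. A changed count can therefore be shared by the whole table. The strain comparisons on chow kept most calls in number when single libraries were left out: 52 to 57 (53) for DBA/2J against C57BL/6J, 31 to 40 (38) for BALB/cJ against C57BL/6J and 23 to 30 (26) for BALB/cJ against DBA/2J. BALB/cJ against C57BL/6J fell to 23 with the title number, 4 with all cell type lists, 21, 25 and 8 with the acinar, stellate and endothelial list alone, and 17 and 15 without day 5 or 33. DBA/2J against C57BL/6J fell to 9 with all lists and 24 with the endothelial list. BALB/cJ against DBA/2J fell to 16 and 15 without day 5 or 13.

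For diet in C57BL/6J (12), leaving out single libraries gave 6 to 18, array weights 32, the title number 0, all lists 6, the stellate, endothelial and macrophage lists 7, 5 and 4, and leaving out day 5 or 13 gave 1 each. At day 13 (2) single libraries gave 0 to 13, array weights 40, the replicate block 4, and leaving out 11 libraries with outlying cell type levels 10. At day 5 (0) array weights gave 6. At day 33 (0) single libraries gave 0 to 2 and array weights 17. The average over strains (2) became 11 with array weights, 1 with the title number, all lists or without day 13, and 0 without day 5.

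For DBA/2J at day 5 (0), single libraries gave 0 to 16, array weights 43, and a filter above 2 log2 CPM or the replicate block 1, and at day 33 (0) array weights gave 2. For BALB/cJ, day 5 (0) had 0 to 2 with single libraries and 2 without outlying libraries, and day 13 (0) had 2 with array weights. The difference of diet effects between DBA/2J and C57BL/6J (1) gave 0 to 11 with single libraries, 2 with median scaling, 4 with the filter, the replicate block or voom, 38 with array weights, 5 without day 33, 7 without outlying libraries, and 0 with the title number, all lists, or without day 5 or 13. That between BALB/cJ and C57BL/6J (0) gave 0 to 2, 15 with array weights and 1 without day 33. Time in DBA/2J (2) gave 0 to 12, 17 with array weights, 0 with the title number and 1 without outlying libraries. Time in C57BL/6J (0) gave 4 and in BALB/cJ (0) 1 with array weights.

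Signs reversed for Cox6c by diet in C57BL/6J with the title number (0.028). With all lists they reversed in DBA/2J for Cox4i2 (-0.18) and Cox6a2 (-0.020), and in BALB/cJ for Uqcrq (-0.059), Cox4i2 (-0.063) and Atp5g1 (-0.046). With the endothelial list Cox6a2 reversed in BALB/cJ against C57BL/6J (-0.84). The cause was not tested. The replicate block joined libraries of a strain that share a title number (48 blocks, 21 of them shared), with a consensus correlation of 0.06, and the labels do not say that such libraries share an animal or batch; other counts stayed within 1.5 times of the main ones under the block. Array weights give some libraries more than others and added calls in each diet comparison listed with them. The planned edgeR test was not run; voom, the days left out, the outlying libraries and single lists were chosen after seeing the data. Counting error limits mainly Cox4i2, with 11 to 66 reads per library.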
